A study of Mactra quadrangularis with 9 samples.

Results

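The carbonic anhydrases of the clam gill were taken as the genes of the deposited table whose description contained the words carbonic anhydrase, in any case, and whose mean was at least 1 FPKM over 9 libraries. FPKM is a fragment count scaled for gene length and library size. Of 24722 genes in the table, 14 carried the words and 12 reached the minimum. The rule used mean levels over all libraries and no contrast between oxygen groups. Messenger RNA was measured by poly(A) sequencing in gills of Mactra quadrangularis, a clam named Mactra veneriformis in the text of the series. The clams had spent 24 h in water with 7.5 (control), 4 or 2 mg/L dissolved oxygen, each within 0.2 mg/L, with 3 libraries per group. Temperature (20 °C), salinity (27) and stocking (40 clams per parallel) were the same in all groups. Nothing in the labels states that replicate libraries derive from different clams, so p-values here reflect library-to-library spread alone, which may be technical.

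Carbonic anhydrases are zinc enzymes that interconvert carbon dioxide and water with bicarbonate and a proton. In animals most belong to the alpha class, which holds cytosolic forms such as carbonic anhydrase II, forms held at the outer cell surface by a glycosylphosphatidylinositol (GPI) anchor or a membrane-spanning segment, and carbonic anhydrase-related proteins that lack the zinc-binding residues needed for catalysis. In aquatic animals the gill is the main site of carbon dioxide loss, and there these enzymes feed protons and bicarbonate to ion exchangers. In molluscs, relatives of the same fold also take part in shell formation in the mantle.

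The descriptions placed 3 of the 12 genes at a membrane. They were 2 genes described as GPI-anchored, Mve11G016400 and Mve11G007100, and a putative membrane-associated form with 2 domains, Mve11G009960. All 3 were matched by the authors to Phreagena okutanii, a deep-sea clam whose gill houses chemosynthetic bacteria. Another 3 were described as carbonic anhydrase II or 2-like (Mve06G005770, Mve06G005780 and Mve05G008110). The others were a 13-like gene (Mve13G003190), a 14-like gene (Mve11G000310), a gene with no type given (Mve06G007180), a beta class gene (Mve01G015410) and 2 related or carbonic anhydrase-like genes (Mve09G012310 and Mve09G001640). The deposited Gene Ontology terms named carbonate dehydratase activity for each of the 12 except the last 2. These terms placed the 3 membrane-described genes and the 13-like gene, whose description also carries a low-quality flag, at a membrane. Chromosome 11 held 4 members, chromosome 6 held 3 and chromosome 9 held 2. Mve06G005770 and Mve06G005780 lay next to each other on the minus strand of chromosome 6, with 7382 bases and 0 annotated genes between them. Gene positions were taken from the deposited table, whose genome build is not stated in the labels. Copies with the same description may share reads, and this was not checked.

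Library totals ran from 26994566 to 32246147 counts, and libraries of a group correlated at 0.991 to 0.992 across genes. Differences were tested with edgeR's quasi-likelihood test over 15397 genes, with Benjamini-Hochberg adjustment over all of them, and a gene was called at an adjusted p under 0.05. Levels by library are given as CPM, counts relative to library size after TMM scaling. Changes were widespread in this gill. At 4 against 7.5 mg/L 69.9% of all genes tested were called, at 2 against 7.5 mg/L 63.5%, and at 2 against 4 mg/L 63.7%, so the share of carbonic anhydrases called, 8 of 12 in each comparison, was near the background.

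The GPI-anchored gene and the 2-domain membrane gene were many times higher at 4 mg/L than in control gill and much closer to control at 2 mg/L, while carbonic anhydrase II was low at 4 mg/L. Mve11G016400, GPI-anchored carbonic anhydrase, lies on the minus strand of chromosome 11 at 44661265 to 44685975. It had 17.7, 19.2 and 17.8 CPM in the control libraries, 246, 230 and 226 CPM at 4 mg/L and 27.5, 24.8 and 25.1 CPM at 2 mg/L. The lowest library at 4 mg/L was several times above the highest of either other group, and the 2 mg/L libraries all lay above the controls. The gene was 12.8-fold higher at 4 than at 7.5 mg/L (log2 fold change 3.68 ± 0.06 SE, edgeR adjusted p = 1.58e-17), and 538 of the 15397 genes had a higher log2 fold change. At 2 mg/L it was 1.41-fold higher than in control (0.50 ± 0.07, edgeR adjusted p = 5.08e-06), and with scaling by total counts this was 0.30 on the log2 scale and still passed. Directly compared, the 2 mg/L libraries were 9.07-fold lower than the 4 mg/L libraries (-3.18 ± 0.06, edgeR adjusted p = 1.72e-16). In bulk gill RNA, a change in the number of cells of a type and a change in RNA per cell cannot be told apart, here and in each result that follows.

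Mve11G009960, the membrane-associated form with 2 domains, lies on the plus strand of chromosome 11 at 27259845 to 27278677, with 563 annotated genes between it and Mve11G016400. Its levels were 19.1, 16.8 and 17.4 CPM in control libraries, 103, 103 and 114 CPM at 4 mg/L and 34.6, 28.7 and 32.1 CPM at 2 mg/L. The 3 groups did not overlap, with 4 mg/L highest and control lowest. It was 6.01-fold higher at 4 than at 7.5 mg/L (log2 2.59 ± 0.08, edgeR adjusted p = 4.43e-14) and 1.79-fold higher at 2 than at 7.5 mg/L (0.84 ± 0.08, edgeR adjusted p = 1.82e-07). At 2 mg/L it was 3.36-fold lower than at 4 mg/L (-1.75 ± 0.08, edgeR adjusted p = 6.05e-12).

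Mve11G007100, the other gene described as GPI-anchored, was barely expressed. It had 0.842, 1.79 and 1.5 CPM in control libraries, 1.70, 2.60 and 1.09 CPM at 4 mg/L and 3.48, 2.18 and 2.24 CPM at 2 mg/L. The control and 4 mg/L libraries overlapped, and the 2 mg/L libraries all lay above the controls. The log2 fold change was 0.38 ± 0.39 at 4 against 7.5 mg/L (edgeR adjusted p = 0.408). At 2 against 7.5 mg/L it was 0.93 ± 0.39, a 1.9-fold difference that only just passed (edgeR adjusted p = 0.0493). That call was lost in 11 of the 16 alternative analyses that tested the gene, with an adjusted p of up to 0.204 when replicate 1 at 2 mg/L was left out.

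**Figure D1:**
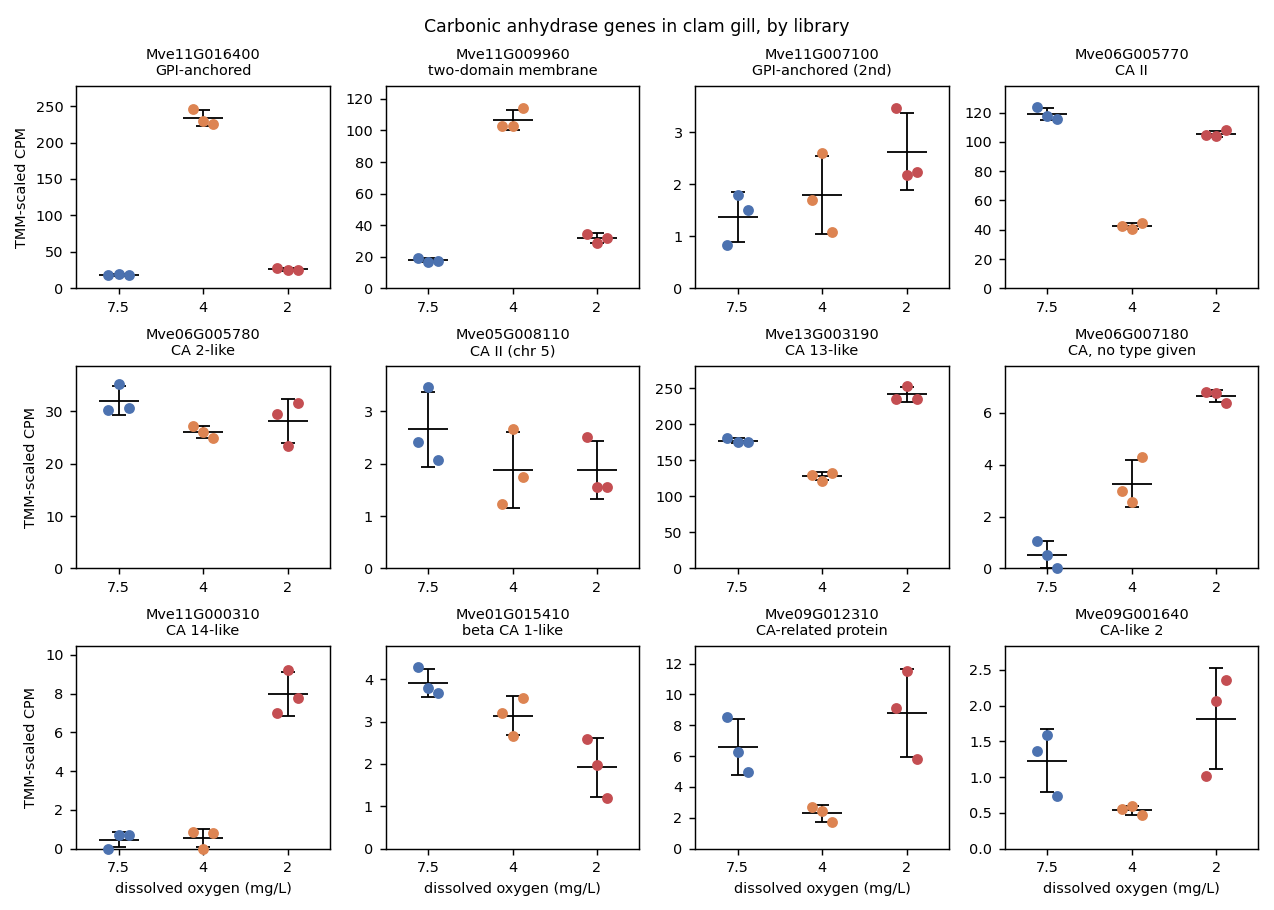
Level of each of the 12 carbonic anhydrase genes in TMM-scaled CPM (y axis, a separate linear scale per panel) at 7.5, 4 and 2 mg/L dissolved oxygen, with 1 point per library and bars for mean ± SD of 3 libraries. Mve11G016400 and Mve11G009960 peak at 4 mg/L, Mve06G005770 and Mve13G003190 are lowest there, and Mve06G007180 and Mve11G000310 are highest at 2 mg/L.

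Carbonic anhydrase II, the fast cytosolic enzyme of vertebrate red cells and acid-secreting epithelia, is represented on chromosome 6 by Mve06G005770 (18826606 to 18845811). This gene had 124, 118 and 116 CPM in control libraries, 42.5, 40.5 and 44.5 CPM at 4 mg/L and 105, 104 and 108 CPM at 2 mg/L. The 4 mg/L libraries stood far below both other groups, and the 2 mg/L libraries lay just below the controls without overlap. It was 2.81-fold lower at 4 than at 7.5 mg/L (log2 -1.49 ± 0.06, edgeR adjusted p = 3.19e-13), and 2.49-fold higher at 2 than at 4 mg/L (1.32 ± 0.06, edgeR adjusted p = 2.14e-12). The difference between 2 and 7.5 mg/L was small, 1.13-fold lower (-0.17 ± 0.05, edgeR adjusted p = 0.00958). Without control replicate 1 it did not pass (adjusted p = 0.0513), whereas with scaling by total counts it was more than 1.5 times as large on the log2 scale (-0.37).

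The neighbouring gene Mve06G005780, described as carbonic anhydrase 2-like, spans 18853194 to 18864980 and differed by smaller folds. It had 30.3, 35.2 and 30.6 CPM in control libraries, 27.2, 26.1 and 24.8 CPM at 4 mg/L and 29.5, 23.4 and 31.5 CPM at 2 mg/L. The 4 mg/L libraries lay below the controls, and the 2 mg/L libraries overlapped both other groups. It was 1.23-fold lower at 4 than at 7.5 mg/L (log2 -0.30 ± 0.11, edgeR adjusted p = 0.019), a call that was lost when control replicate 2 was left out (adjusted p = 0.101) and when replicate 3 at 4 mg/L was (adjusted p = 0.0557). At 2 against 7.5 mg/L the log2 fold change was -0.19 ± 0.11 (edgeR adjusted p = 0.132). It passed as lower with total-count scaling (-0.39), with limma on FPKM and without replicate 3 at 2 mg/L (adjusted p = 0.0452). The last gene of this kind, Mve05G008110 on chromosome 5, stayed between 1.24 and 3.47 CPM in all 9 libraries. Its groups overlapped, and no comparison passed (edgeR adjusted p of 0.224, 0.238 and 0.999 for 4 against 7.5, 2 against 7.5 and 2 against 4 mg/L).

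Mve13G003190, on the minus strand of chromosome 13 at 10083780 to 10105750, was described as 13-like; carbonic anhydrase XIII is a cytosolic form in mammals. Its levels were 181, 176 and 175 CPM in control libraries, 130, 122 and 132 CPM at 4 mg/L and 236, 254 and 236 CPM at 2 mg/L. The 3 groups did not overlap, and control lay between the hypoxic groups. It was 1.39-fold lower at 4 than at 7.5 mg/L (log2 -0.48 ± 0.05, edgeR adjusted p = 9.77e-08) and 1.36-fold higher at 2 than at 7.5 mg/L (0.45 ± 0.05, edgeR adjusted p = 2.74e-07). At 2 mg/L it was 1.9-fold higher than at 4 mg/L (0.92 ± 0.05, edgeR adjusted p = 2.35e-11). It was the 1 member of 12 called in opposite directions at the 2 hypoxic levels, which 9.67% of all genes tested were. Under total-count scaling its excess at 2 over 7.5 mg/L was 0.25 on the log2 scale and still passed.

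A pair of rare genes was highest at 2 mg/L. Mve11G000310 (chromosome 11, minus strand, 1124931 to 1139839) was described as 14-like, after a mammalian carbonic anhydrase that spans the membrane, although its deposited terms do not place it there. It had 0, 0.676 and 0.705 CPM in control libraries, 0.865, 0 and 0.780 CPM at 4 mg/L and 6.99, 9.22 and 7.75 CPM at 2 mg/L. The control and 4 mg/L libraries overlapped near 0, and every 2 mg/L library was far above them. It was 16.7-fold higher at 2 than at 7.5 mg/L (log2 4.06 ± 0.69, edgeR adjusted p = 8.00e-05) and 14.5-fold higher at 2 than at 4 mg/L (3.86 ± 0.68, edgeR adjusted p = 0.000107). At 4 against 7.5 mg/L its log2 fold change was 0.20 ± 0.78 (edgeR adjusted p = 0.825). The 2 against 7.5 mg/L value moved between 3.53 without control replicate 1, the library at 0, and 4.47 without control replicate 3, and was 1.79 with limma on log2(FPKM + 1), where the pseudocount shrinks the change of low genes. Against 4 mg/L it moved between 3.27 without 4 mg/L replicate 2, the other library at 0, and 4.35 without 4 mg/L replicate 1, and was 1.76 with limma on log2(FPKM + 1).

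Mve06G007180 (chromosome 6, plus strand, 23594336 to 23604684), described as carbonic anhydrase with no type, had 1.05, 0.529 and 0 CPM in control libraries, 2.97, 2.54 and 4.28 CPM at 4 mg/L and 6.79, 6.77 and 6.36 CPM at 2 mg/L. The groups did not overlap, and the level was higher at each lower oxygen setting. It was 6.36-fold higher at 4 than at 7.5 mg/L (log2 2.67 ± 0.55, edgeR adjusted p = 0.000415) and 12.9-fold higher at 2 than at 7.5 mg/L (3.69 ± 0.55, edgeR adjusted p = 2.02e-05). Its 2.04-fold difference between 2 and 4 mg/L did not pass (1.03 ± 0.46, edgeR adjusted p = 0.0613). It did pass without control replicate 1 or 3 (edgeR adjusted p of 0.0334 and 0.00341), libraries outside this comparison. The difference also passed with limma on log2(FPKM + 1) and with only the 2 groups in the fit. The control level rests on 30, 18 and 0 counts. Leaving out control replicate 3, the library at 0, gave log2 fold changes of 2.06 at 4 and 3.08 at 2 against 7.5 mg/L. Leaving out control replicate 1 gave 3.60 and 4.63, and limma on log2(FPKM + 1) gave 1.04 and 1.66. Mve11G000310 and Mve06G007180 reached the mean of 1 FPKM only through hypoxic groups, so some difference between groups was built into their selection.

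The beta class gene Mve01G015410 (chromosome 1) belongs to a family of unrelated fold that is found in plants, microbes and invertebrates but not in vertebrates, and its deposited terms name the mitochondrion. It had 4.28, 3.79 and 3.67 CPM in control libraries, 3.21, 2.66 and 3.56 CPM at 4 mg/L and 2.59, 1.97 and 1.20 CPM at 2 mg/L. The groups did not overlap, and 2 mg/L was lowest. It was 2.02-fold lower at 2 than at 7.5 mg/L (log2 -1.02 ± 0.29, edgeR adjusted p = 0.00616). At 4 against 7.5 mg/L the log2 fold change was -0.31 ± 0.28 (edgeR adjusted p = 0.331). The 1.63-fold lower level at 2 than at 4 mg/L passed narrowly (edgeR adjusted p = 0.0462), and that call was lost in 10 of 16 alternatives, with an adjusted p of up to 0.174 without 2 mg/L replicate 3.

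Both related genes on chromosome 9, which lack the enzyme-activity term, were lowest at 4 mg/L. Mve09G012310, carbonic anhydrase-related protein 10, belongs to a group that in mammals is non-catalytic. It had 8.52, 6.23 and 4.99 CPM in control libraries, 2.72, 2.45 and 1.69 CPM at 4 mg/L and 9.11, 11.5 and 5.80 CPM at 2 mg/L. The 4 mg/L libraries lay below all others, while control and 2 mg/L overlapped. It was 2.87-fold lower at 4 than at 7.5 mg/L (log2 -1.52 ± 0.28, edgeR adjusted p = 0.000129) and 3.85-fold higher at 2 than at 4 mg/L (1.95 ± 0.28, edgeR adjusted p = 1.19e-05). At 2 against 7.5 mg/L its log2 fold change was 0.42 ± 0.26 (edgeR adjusted p = 0.164), or 0.65 and passing without 2 mg/L replicate 3 (adjusted p = 0.0371).

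Mve09G001640, a putative carbonic anhydrase-like protein 2, had 1.37, 1.59 and 0.734 CPM in control libraries, 0.556, 0.589 and 0.468 CPM at 4 mg/L and 1.02, 2.07 and 2.36 CPM at 2 mg/L. Here too the 4 mg/L libraries were the lowest and the other groups overlapped. It was 3.35-fold higher at 2 than at 4 mg/L (log2 1.75 ± 0.46, edgeR adjusted p = 0.00336). The 2.27-fold lower level at 4 than at 7.5 mg/L (-1.19 ± 0.46, edgeR adjusted p = 0.0312) was lost without control replicate 1 or 2 or any 4 mg/L library, with an adjusted p of up to 0.113.

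Taking the 12 members as a whole, 3 were higher and 5 lower at 4 than at 7.5 mg/L, where 35.4% of all genes tested were higher and 34.5% lower. Their median log2 fold change was -0.31, and that of all genes was -0.005. Changes of at least 2-fold were called for 3 members upward and 3 downward, where 17.9% and 14.8% of all genes (32.6% together) had one. Mve06G007180, whose selection favours a difference, is among the 3 upward. At 2 against 7.5 mg/L 6 were higher and 2 lower, where 31.5% and 32.0% of all genes were (of the called genes 49.6% were higher, and 35.9% with total-count scaling), with a median of 0.47 over the members and -0.03 over all genes. Of these calls, 2 upward and 1 downward were at least 2-fold, against 13.8% and 11.3% of all genes (25.1% together). Both upward ones are Mve06G007180 and Mve11G000310, which reached the minimum only through hypoxic groups, so this count shows nothing about the members beyond their own values. At 2 against 4 mg/L 5 were higher and 3 lower, where 31.6% and 32.1% of all genes were, with medians of 0.74 and -0.02. Here 4 upward and 2 downward calls were at least 2-fold, against 13.9% and 13.1% of all genes (27.0% together), with Mve11G000310 among the 4. These comparisons share libraries in pairs. A change at 4 against 7.5 mg/L that was called in the other direction between 2 and 4 mg/L was seen in 6 of 12 members and in 40.4% of all genes tested. Of the members, 4 of 12 were called in all 3 comparisons, as were 31.7% of all genes. With at least a 2-fold change in both steps the numbers for the reversal were 5 of 12 members and 16.2% of all genes. Those 5 were Mve11G016400 and Mve11G009960, high at 4 mg/L, and Mve06G005770, Mve09G012310 and Mve09G001640, low there.

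**Figure D2:**
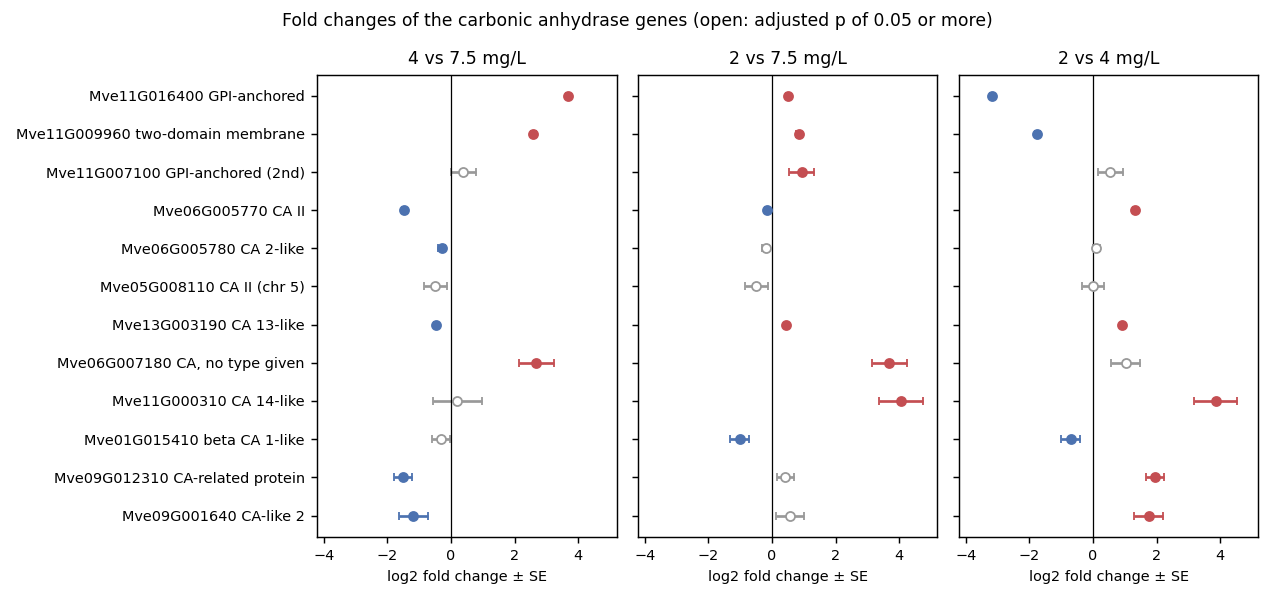
Log2 fold change ± SE from edgeR (x axis) of the 12 carbonic anhydrase genes (rows) for 4 against 7.5, 2 against 7.5 and 2 against 4 mg/L, with red for higher, blue for lower and open grey circles for an adjusted p of 0.05 or more. The GPI-anchored gene is at 3.68, 0.50 and -3.18 and carbonic anhydrase II at -1.49, -0.17 and 1.32 in the 3 panels.

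Because FPKM accounts for gene length, it allows levels of different members to be ordered. In control gill carbonic anhydrase II Mve06G005770 came first with 97.8 ± 3.24 FPKM (SD, n = 3), followed by the 13-like gene with 60.9 FPKM, the 2-like gene with 19.6, GPI-anchored Mve11G016400 with 16.6 ± 0.836 and the 2-domain gene with 9.59. Down to the 2-domain gene, neighbours in this order did not overlap between libraries. At 4 mg/L the order began with Mve11G016400 at 205 ± 11.4 FPKM, then the 2-domain gene at 55.2, the 13-like gene at 41.9, carbonic anhydrase II at 33.4 ± 1.31 and the 2-like gene at 15.3, again without overlap. At 2 mg/L carbonic anhydrase II with 75.8 ± 1.12 FPKM and the 13-like gene with 72.4 overlapped at the top, Mve11G016400 came next with 20.5 ± 1.33, and the 2-like and 2-domain genes overlapped at 15.0 FPKM each. The other 7 members stayed below 9 FPKM on average in every group. Among all genes tested, Mve11G016400 ranked 3391 by FPKM in control gill, 383 at 4 mg/L and 2642 at 2 mg/L.

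The make-up of the summed carbonic anhydrase message differed most at 4 mg/L. Mve11G016400 supplied 7.46% ± 0.372 of the summed FPKM in control, 56.3% ± 1.58 at 4 mg/L and 9.27% ± 0.451 at 2 mg/L (SD, n = 3). Mve06G005770 supplied 43.8% ± 0.866, 9.19% ± 0.413 and 34.2% ± 1.01 in the same order. The 3 membrane-described genes together made up 11.9% to 12.6% in control libraries, 71.3% to 72.5% at 4 mg/L and 15.9% to 18.4% at 2 mg/L, without overlap. A share depends on every member, so the lower share of the 13-like gene at 4 mg/L, 11.6% against 27.3% in control, also holds the higher sum. That sum was 223 ± 7.81 FPKM in control, 363 ± 11.3 at 4 mg/L and 222 ± 4.51 at 2 mg/L, so control and 2 mg/L overlapped on this scale. In TMM-scaled CPM the sums were 382 ± 10.1, 550 ± 14.6 and 465 ± 5.00, where 2 mg/L did lie above control. Without Mve11G016400 they were 363 ± 10.0, 316 ± 12.5 and 440 ± 5.69 CPM, lowest at 4 mg/L.

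**Figure D3:**
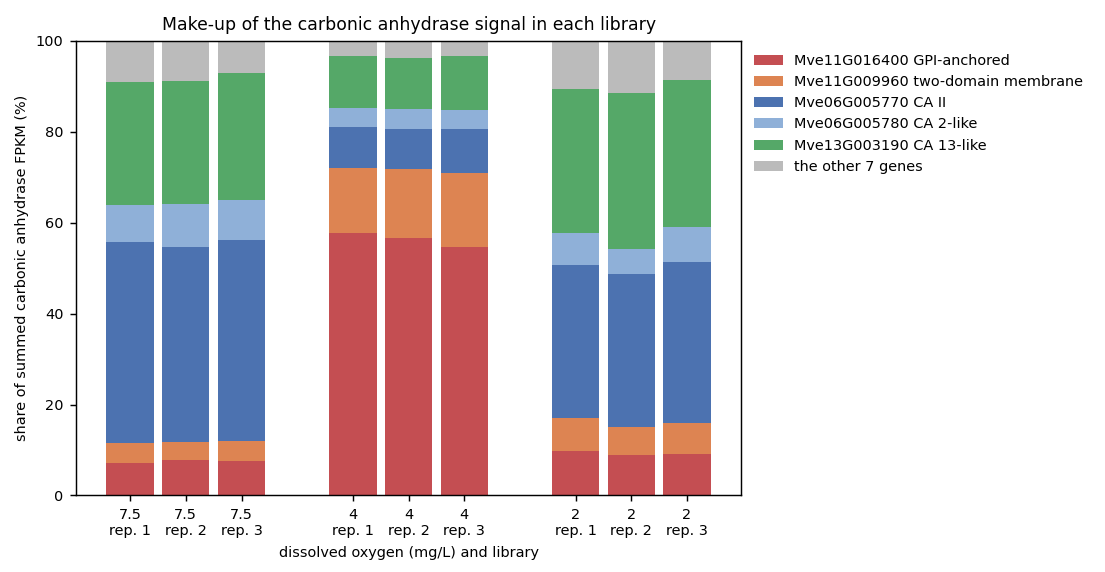
Share of the summed FPKM of the 12 carbonic anhydrase genes (y axis, %) in each library, ordered by dissolved oxygen, with a colour for each of the 5 most abundant genes and grey for the other 7. GPI-anchored Mve11G016400 takes 56.3% on average at 4 mg/L, where carbonic anhydrase II takes 9.19%.

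Of the 2 described genes below the minimum of 1 FPKM, Mve15G008180, carbonic anhydrase II on chromosome 15, had a mean of 0.68 FPKM. It had 12, 0 and 20 counts in control libraries, 0 in all 3 libraries at 4 mg/L and 38, 42 and 34 counts at 2 mg/L. With 3 counts over the 4 mg/L group as a floor, its level at 2 mg/L was at least 44.2-fold higher than at 4 mg/L (edgeR adjusted p = 0.00107, tested without the minimum). Its control level was at least 10.7-fold higher than at 4 mg/L (edgeR adjusted p = 0.00707), although 1 control library had 0 counts. The difference between 2 and 7.5 mg/L did not pass (edgeR adjusted p = 0.128). Mve08G007210, carbonic anhydrase-related protein 10-like, had 0.524 FPKM and between 0 and 34 counts per library, and no comparison passed when it was tested without the minimum (edgeR adjusted p of 0.296, 0.632 and 0.133 for 4 against 7.5, 2 against 7.5 and 2 against 4 mg/L). The members just above the minimum were Mve11G000310 with 1.20 and Mve09G001640 with 1.39 FPKM.

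For each member called in all 3 comparisons with at least a 2-fold change in 1 of them, the genes whose log2(CPM + 1) profile over the 9 libraries, centred on its mean, was nearest by Euclidean distance are given as a description. For carbonic anhydrase II Mve06G005770 these were a calmodulin-like gene, Mve02G013340 (distance 0.210), axonemal dynein heavy chain 3, Mve08G006600 (0.240), and migration and invasion enhancer 1, Mve15G010800 (0.252). The dynein gene, which encodes a motor of cilia, averaged 110 CPM in control, 39.0 at 4 mg/L and 91.3 at 2 mg/L. For Mve11G009960 they were choline/ethanolamine kinase Mve16G013780 (0.348), complement C1q-like protein 2 Mve01G014650 (0.366) and DDB1- and CUL4-associated factor 11 Mve06G005090 (0.396). The kinase, of phospholipid synthesis, averaged 48.1, 303 and 94.7 CPM at 7.5, 4 and 2 mg/L. For Mve11G016400 they were a nicotinic acetylcholine receptor subunit alpha-6-like gene, Mve01G021550 (0.400), a jockey-like reverse transcriptase, Mve19G006210 (0.473), and carbohydrate sulfotransferase 11-like Mve11G012700 (0.615). The sulfotransferase, of chondroitin sulfate synthesis, averaged 1.55, 30.1 and 2.09 CPM in the same order. Mve01G021550, Mve19G006210 and Mve01G014650 averaged under 1 FPKM at 7.5 and at 2 mg/L. They were tested only because of the 4 mg/L group, so part of their likeness was built into their selection.

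Genes next to the changing members on the chromosome did not all move with them. The uncharacterized gene Mve11G016390, beside Mve11G016400, averaged 0.966 CPM in control, 5.65 at 4 mg/L and 2.26 at 2 mg/L, highest at 4 mg/L like its neighbour. On the other side, Mve11G016420 was below the minimum and had 45, 39 and 50 counts in control libraries, 8, 0 and 8 at 4 mg/L and 0 in all 3 at 2 mg/L. Beside Mve11G009960, the oxysterol-binding protein gene Mve11G009970 was 4.20-fold higher at 4 and 2.09-fold higher at 2 than at 7.5 mg/L. The vacuole membrane protein 1-like gene Mve11G009950, on the other side, was 1.75-fold higher at 4 than at 7.5 mg/L and 2.35-fold lower at 2 than at 4 mg/L. Both of these neighbours were highest at 4 mg/L, like Mve11G009960. Mve06G005760, an APCDD1 gene on the far side of Mve06G005770, averaged 0.268, 4.05 and 1.56 CPM at 7.5, 4 and 2 mg/L, highest where carbonic anhydrase II was lowest.

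Partners of the enzyme were followed in 4 lists. Among 15 exchangers and channels for bicarbonate and protons, 7 were higher and 4 lower at 4 than at 7.5 mg/L, 4 higher and 3 lower at 2 than at 7.5 mg/L, and 6 higher and 5 lower at 2 than at 4 mg/L. Their median log2 fold changes were 0.12, 0.22 and 0.26. With 69.9%, 63.5% and 63.7% of all genes called in these comparisons, about equally in each direction, the 11, 7 and 11 called of 15 were not far from the background. At 2 against 7.5 mg/L the largest fold change of the list was in Mve19G006690, electrogenic sodium bicarbonate cotransporter 1-like, a carrier that moves bicarbonate with sodium. It had 0.877, 0.529 and 0.352 CPM in control libraries, 0.896, 0.744 and 1.59 CPM at 4 mg/L and 93.1, 104 and 89.0 CPM at 2 mg/L. Only the 2 mg/L libraries were high, 166-fold above control (log2 7.37 ± 0.20, edgeR adjusted p = 7.73e-15) and 88.4-fold above 4 mg/L (6.47 ± 0.18, edgeR adjusted p = 1.47e-14). It averaged 0.163, 0.295 and 24.0 FPKM at 7.5, 4 and 2 mg/L, so it reached the minimum of 1 FPKM only through the group where it was high and had to differ. Sodium/hydrogen exchanger 3-like Mve06G008550, which in vertebrates trades sodium for protons at the apical surface, averaged 8.80 CPM in control, 32.5 at 4 mg/L and 35.3 at 2 mg/L. It was 3.69-fold higher at 4 and 4.00-fold higher at 2 than at 7.5 mg/L (edgeR adjusted p of 6.91e-11 and 4.49e-11). The sodium-driven chloride bicarbonate exchanger Mve19G001690 averaged 25.3, 40.5 and 57.5 CPM at 7.5, 4 and 2 mg/L and was called higher in each comparison, by 1.60, 2.28 and 1.42-fold for 4 against 7.5, 2 against 7.5 and 2 against 4 mg/L. Sodium/hydrogen exchanger 9 Mve13G001290 averaged 4.14 CPM at 4 mg/L and had no count in control or at 2 mg/L, at least 133-fold higher than in control, with the same floor of 3 counts per group. Its FPKM averaged 0, 4.39 and 0 at 7.5, 4 and 2 mg/L, so it too was tested only because of the group where it was high.

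Among 18 channels for ammonia, carbon dioxide and water (Rh and ammonium transporters and aquaporins), 2 were higher and 13 lower at 4 than at 7.5 mg/L, with a median log2 fold change of -0.94, where 35.4% of all genes were higher and 34.5% lower. At 2 against 7.5 mg/L 4 were higher and 9 lower (median -0.22), and at 2 against 4 mg/L 10 were higher and 3 lower (median 0.44), where 31.5% and 32.0%, and then 31.6% and 32.1%, of all genes were higher and lower. Mve14G010620, an ammonium transporter Rh type A-like gene of a family that conducts ammonia, had 6.59, 10.1 and 9.69 CPM in control libraries, 121, 118 and 127 CPM at 4 mg/L and 7.23, 7.57 and 6.04 CPM at 2 mg/L. As with Mve11G016400, the 4 mg/L libraries alone were high. It was 13.8-fold higher at 4 than at 7.5 mg/L (log2 3.78 ± 0.12, edgeR adjusted p = 3.54e-14) and 17.5-fold lower at 2 than at 4 mg/L (-4.13 ± 0.12, edgeR adjusted p = 2.85e-14). Several genes were described as ammonium transporter 1. Of these, Mve16G006260 averaged 36.9, 9.54 and 53.3 CPM at 7.5, 4 and 2 mg/L, lowest at 4 mg/L. Mve16G004240 was instead highest there, with 48.5, 80.1 and 13.7 CPM, and the rest were lowest at 4 mg/L. Aquaporin-8 Mve01G019120 was 12.5-fold lower at 4 than at 7.5 mg/L and 15.7-fold higher at 2 than at 4 mg/L. Aquaporin-5-like Mve06G006830 was low at both hypoxic levels, 8.07-fold lower at 4 and 5.44-fold lower at 2 than at 7.5 mg/L.

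**Figure D4:**
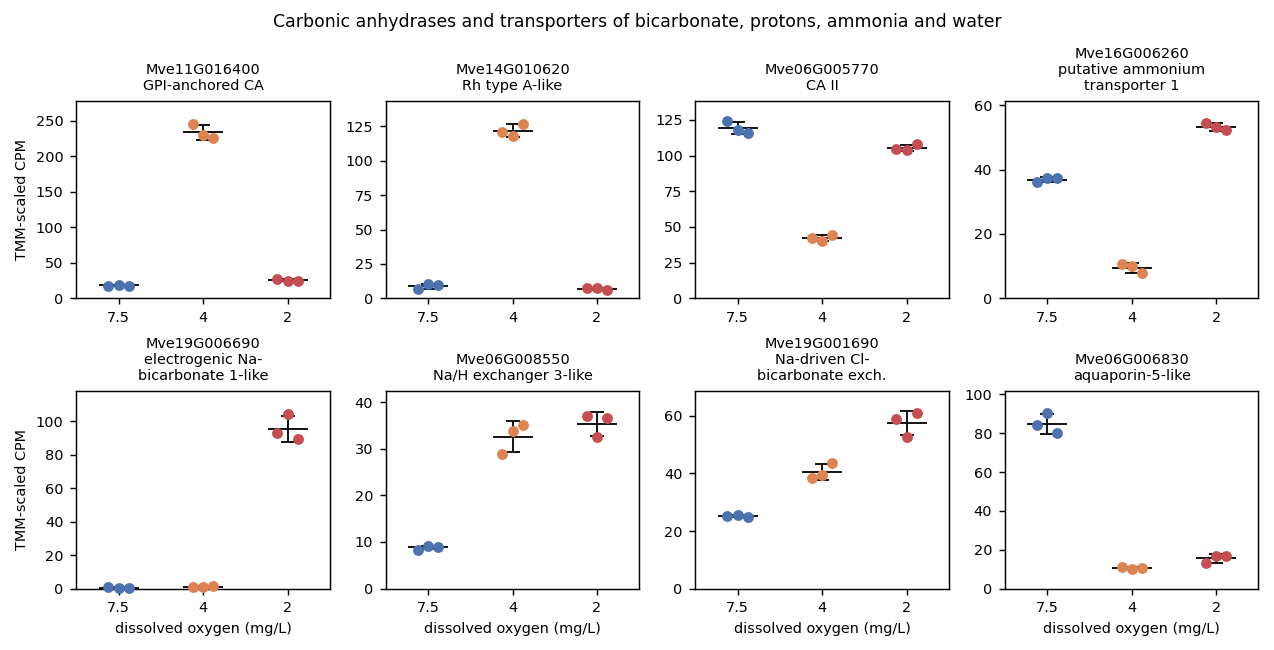
TMM-scaled CPM (y axis, a separate linear scale per panel) at 7.5, 4 and 2 mg/L dissolved oxygen of the GPI-anchored carbonic anhydrase, carbonic anhydrase II and 6 transporter genes, with 1 point per library and bars for mean ± SD of 3 libraries. The Rh type A-like gene averages 122 CPM at 4 mg/L against 8.79 in control, and the sodium bicarbonate cotransporter averages 95.4 CPM at 2 mg/L against 0.586 in control.

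The V-type proton pump, which acidifies compartments and energises ion transport, differed by modest folds. Of its 10 subunits tested, 2 were higher and 7 lower at 4 than at 7.5 mg/L, 0 higher and 5 lower at 2 than at 7.5 mg/L, and 4 higher and 4 lower at 2 than at 4 mg/L, and none of these reached 2-fold. Over all genes 69.9%, 63.5% and 63.7% were called, and 32.6%, 25.1% and 27.0% at 2-fold or more. The median log2 fold changes were -0.26, -0.25 and 0.03. Subunit B Mve13G002020 averaged 113 CPM in control, 77.7 at 4 mg/L and 86.2 at 2 mg/L. Subunit a Mve07G002930 averaged 14.3, 25.8 and 16.9 CPM in the same order. Of 8 carboxylases, which fix bicarbonate into metabolites, 6 were higher and 2 lower at 4 than at 7.5 mg/L, 3 higher and 3 lower at 2 than at 7.5 mg/L, and 0 higher and 2 lower at 2 than at 4 mg/L, with medians of 0.46, 0.12 and -0.07. Over all genes 35.4% were higher and 34.5% lower in the first of these comparisons, 31.5% and 32.0% in the next and 31.6% and 32.1% in the last. Pyruvate carboxylase Mve02G012180, which feeds oxaloacetate to the citric acid cycle and gluconeogenesis, averaged 170 CPM in control, 225 at 4 mg/L and 120 at 2 mg/L, and each difference passed (edgeR adjusted p of 1.51e-06, 2.1e-07 and 8.8e-11 for 4 against 7.5, 2 against 7.5 and 2 against 4 mg/L). CAD protein-like Mve04G001680, of pyrimidine synthesis, was 1.92-fold higher at 4 and 2.04-fold higher at 2 than at 7.5 mg/L.

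Marker genes of cell types other than the epithelium, and of the ciliated epithelium itself, moved as well. Ciliated epithelium markers, of which 63 of 65 were tested, summed to 6036 to 6122 CPM in control libraries, 5071 to 5151 at 4 mg/L and 5526 to 5562 at 2 mg/L, and 0, 1 and 1 of the 65 were at 0 throughout a group. Carbonic anhydrase II Mve06G005770 ran in the same order as this sum. At 4 against 7.5 mg/L its log2 fold change was -1.49. The median of the markers was -0.21, with a range of -1.50 to 3.24. Changes of at least 2-fold were called for 2 markers downward and 3 upward, against 14.8% and 17.9% of all genes. The 2 were dynein heavy chain genes Mve08G006600 (-1.50) and Mve06G002780 (-1.35), close to carbonic anhydrase II. Of the 63, 12 were called higher and 35 lower there, where 35.4% and 34.5% of all genes were. At 2 against 7.5 mg/L 17 were higher and 28 lower, where 31.5% and 32.0% of all genes were. Muscle markers, 22 of 28 tested, summed to 3265 to 3365, 3095 to 3334 and 10152 to 12524 CPM, far higher at 2 mg/L, as were Mve11G000310 and the sodium bicarbonate cotransporter. The list did not rise as a whole, with 12 of the 22 called higher and 5 lower at 2 than at 7.5 mg/L. Of all genes, 31.5% and 32.0% were. Paramyosin Mve09G008510 averaged 363 CPM in control and 3000 at 2 mg/L. The more abundant troponin C gene, Mve01G000810, averaged 60.5 CPM in control and 177 at 2 mg/L. A rarer troponin C gene, Mve09G000950, averaged 2.92 and 1.03 CPM, 2.85-fold lower at 2 than at 7.5 mg/L. Mantle and shell markers, 12 of 36 tested, summed to 205 to 219, 128 to 136 and 221 to 240 CPM, and 10, 4 and 18 of the 36 were at 0 throughout a group. That sum holds opposite changes. A perlucin-like gene (Mve03G005040) averaged 146, 56.2 and 66.9 CPM at 7.5, 4 and 2 mg/L, while a shell matrix protein-like gene (Mve11G012680) averaged 0.257, 1.41 and 73.4 CPM. The tyrosinases Mve11G003950 (0.662, 0.0413 and 23.7 CPM) and Mve11G003960 (0.0351, 3.63 and 20.2 CPM) were highest at 2 mg/L too, like Mve11G000310 and the sodium bicarbonate cotransporter. Mve11G012680 and Mve11G003950 reached the minimum of 1 FPKM only through 2 mg/L, and Mve11G003960 only through hypoxic groups. As with Mve11G000310 and the cotransporter, a difference between groups was built into their selection, so the likeness shows nothing beyond their own values. Digestive gland markers, 23 of 30 tested and with several inter-alpha-trypsin inhibitors among them, summed to 3352 to 3402, 3756 to 3851 and 3311 to 3340 CPM, highest at 4 mg/L like Mve11G016400. Most of this sum was cathepsin L3 (Mve05G015750, 1952, 2099 and 1699 CPM at 7.5, 4 and 2 mg/L). Of the 23 markers, 13 were called higher and 5 lower at 4 than at 7.5 mg/L, where 35.4% and 34.5% of all genes were. Changes of at least 2-fold were called for 10 upward and 1 downward, against 17.9% and 14.8% of all genes. Among the 10 were alpha-amylase (Mve02G006580, 8.43-fold), a trypsin-like gene (Mve01G019500, 8.18-fold), the cellulases Mve04G004890 (7.79-fold) and Mve04G007900 (10.4-fold) and a cathepsin L1-like gene (Mve17G004030, 12.5-fold). These 5 averaged 0 to 0.275 CPM at 2 mg/L, but not all of the 10 were low there. Pancreatic lipase Mve03G019360 averaged 39.3, 80.9 and 55.3 CPM at 7.5, 4 and 2 mg/L. Endoglucanase E-4 Mve04G003450, which reached the minimum only through hypoxic groups, averaged 1.22, 5.19 and 7.25 CPM. At 2 against 7.5 mg/L 6 of the 23 markers were called higher and 12 lower, where 31.5% and 32.0% of all genes were. Alpha-amylase and both cellulases averaged under 1 FPKM at 7.5 and at 2 mg/L. They were therefore tested only because of the 4 mg/L group, and a high level there was built into their selection. A perlucin (Mve15G005330) and the alpha-amylase had no count at 2 mg/L, nor had 1 of the striated muscle myosin heavy chain genes (Mve09G006830). That perlucin and that myosin gene also reached the minimum of 1 FPKM only through the 4 mg/L group. The part of such cells in the differences between groups was not tested.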

How the data were processed

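The table deposited by the authors gives columns per library headed count and, beside them, FPKM (fragments scaled for gene length and mapped fragments). The headers do not say whether the counts are raw, and they were treated here as unscaled read counts. cutadapt 1.9, HISAT2 2.2.1 and StringTie 2.1.6 are named in the submitters' processing notes, with DESeq2 and edgeR and no role given. The use of strand in counting is not stated. All 18 value columns were used.

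Testing covered the 15397 of 24722 genes whose average over 9 libraries reached 1 FPKM. It used edgeR 4.0.16 (R 4.3.3), quasi-likelihood with TMM scaling, a joint fit of all 3 groups and Benjamini-Hochberg adjustment over those genes. The biological coefficient of variation was 11.8%. Standard errors were derived from the F statistic of each log2 fold change. The same fit was checked on simulated counts. The members, gene lists and tests were chosen with earlier results of these data known. Every member is named, and of each pathway list up to 4 called genes per comparison with the largest fold changes, some of which are left out here. DESeq2 1.42.0, limma 3.58.1 on log2(FPKM + 1) or log2(FPKM + 0.1), other filters and scaling, a replicate block, 2 groups in the fit and leaving out each library were the alternatives, 17 in all. A count of 2 occurred more often than a count of 1 (2649 against 1855 times), so counts are not independent molecules. Fold bounds from a floor of 3 counts cover counting error only and may be too high.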

Additional observations from a re-analysis of the deposited data

How the results depend on the processing

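Of 594 values of members over the alternatives, 541 kept their direction and their side of the threshold, 30 no longer passed, 9 newly passed and 14 changed sign, all of the last in differences that did not pass. With a minimum of 5 FPKM, where fewer genes were tested, 6248, 5975 and 5923 genes were called at 4 against 7.5, 2 against 7.5 and 2 against 4 mg/L, where 10760, 9771 and 9813 were called with the minimum of 1 FPKM. The carbonic anhydrases left were Mve11G016400, Mve11G009960, Mve13G003190, Mve06G005770, Mve06G005780 and Mve09G012310. They gave 3 higher and 1 lower at 2 against 7.5 mg/L and 3 higher and 2 lower at 2 against 4 mg/L. With 1 library left out, between 3 and 5 members were lower at 4 than at 7.5 mg/L and between 1 and 3 were lower at 2 than at 7.5 mg/L. Scaling by total counts moved the median log2 fold change of all genes to -0.23 at 2 against 7.5 mg/L and made 35.9% of called genes higher, where TMM gave 49.6% (limma on log2(FPKM + 1) gave 36.2%). The cause of that shift was not tested. In the replicate block, 10519, 9508 and 9531 genes were called, and the calls of Mve09G001640 at 4 against 7.5, Mve11G007100 at 2 against 7.5 and Mve01G015410 at 2 against 4 mg/L were lost. Deviations of libraries with the same number correlated at -0.029 to 0.005, so no effect shared by such libraries was seen. This check cannot tell whether they shared a tank or a preparation. The block changed no other call of a member.

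At 2 against 4 mg/L the log2 fold change of Mve05G008110 was -0.13 with total-count scaling, -0.0016 with DESeq2, -0.014 without a minimum, -0.077 and -0.10 with limma on log2(FPKM + 1) and log2(FPKM + 0.1), and -0.27 to 0.34 with 1 library left out. That of Mve06G005780 was -0.020, -0.030 and -0.033 with total-count scaling and the 2 limma fits. At 4 against 7.5 mg/L that of Mve11G000310 ran from -0.33 to 0.79 with 1 library left out. In 3 sets of libraries of Mve06G007180 and Mve11G000310 a 0 stood beside counts of 15 or more, as in 161 of 46191 such sets over all genes, and the cause was not tested. Member levels under 1 CPM rest on 28 counts or fewer per library.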

Other observations

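A few genes outside the rule carry related names or terms and were chosen after their values were seen. Mve09G014740, a hypothetical protein with an enzyme term for carbonic anhydrase, averaged 4.31 CPM in control gill, 0.692 CPM at 4 mg/L and 3.87 CPM at 2 mg/L. It was 6.19-fold lower at 4 than at 7.5 mg/L (edgeR adjusted p = 1.63e-05) and 5.58-fold higher at 2 than at 4 mg/L (edgeR adjusted p = 3.85e-05), so it was lowest at 4 mg/L, as were carbonic anhydrase II and both related genes. Nacreins are carbonic anhydrase-like proteins of the shell matrix. Of 2 genes described as nacrein-like protein F, Mve04G002080 was 2.59-fold higher at 2 than at 4 mg/L (edgeR adjusted p = 0.0253), and Mve04G008320 passed in no comparison (edgeR adjusted p of 0.176, 0.788 and 0.112 for 4 against 7.5, 2 against 7.5 and 2 against 4 mg/L).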
